A study of Arabidopsis thaliana with 9 samples.

Results

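The genes described here are 10 markers and regulators of salicylate signalling and immunity in Arabidopsis thaliana, taken by their locus identifiers. They are the transcription factors WRKY33 (AT2G38470), WRKY40 (AT1G80840), WRKY53 (AT4G23810) and WRKY70 (AT3G56400), the pathogenesis-related genes PR1 (AT2G14610), PR2 (AT3G57260) and PR5 (AT1G75040), the receptor kinase FRK1 (AT2G19190), and the regulators EDS1 (AT3G48090) and NPR1 (AT1G64280). They are 10 of 24331 loci with values, in a table that lists 27647 loci. RNA of whole seedlings aged 5 days was measured in 3 groups of 3 libraries: the wild-type accession Col-0, a line labelled MIR394A OE, which overexpresses a microRNA gene, and Col-0 on medium with 2 µM Brz. All groups had 4 days at 4 °C as seeds, then 22 °C with 16 h light and 8 h dark, and the title of the series asks about miR394, brassinosteroid signalling and the growth of the hypocotyl. Neither the promoter of the overexpressor, nor the number of its lines, nor whether replicates are separate growths is in the labels, so the p-values below measure only the spread between these libraries. Values are FPKM, fragments set per length of transcript and per depth of library. Being per length, they allow a rough comparison between genes, since a trend on transcript length remained in the Brz-treated libraries, as given below.

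Salicylate is a plant hormone of defence against biotrophic pathogens. EDS1 acts upstream of its accumulation, NPR1 is a receptor and coactivator for it, and PR1, PR2 and PR5 encode secreted proteins that are widely used as readouts of the pathway in leaves. Perception of microbial patterns at the cell surface acts earlier, induces FRK1 and WRKY genes such as WRKY33, WRKY40 and WRKY53 within a short time, and WRKY proteins bind the W box, a short promoter element with the core TTGAC followed by C or T.

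The 9 libraries had nearly equal depth, 21.5 to 22.0 M reads as fitted from the steps of the low FPKM values. The first principal component of 17662 tested genes held 61.9% of the variance and set the Brz-treated libraries apart. In these libraries the values varied with transcript length: the median log2 fold change against untreated Col-0 was 0.38 in the quintile of genes with the shortest transcripts and -0.72 in that with the longest, and -0.22 over all genes. Comparisons with Brz-treated Col-0 are therefore also given with a smooth trend on length removed from each library. All 6 green tissue markers were present in every group, with summed levels of 43655 to 56910 FPKM. Single markers moved in opposite directions, so the sums do not show equal composition. From Col-0 to Brz-treated Col-0, means rose for LHCB1.3 (12788 to 22916 FPKM) and LHCA1. They fell for RCA (6432 to 3707 FPKM), RBCS1A, LHCB2.1 and PSAD1. Root markers summed to 59.5 to 88.55 FPKM in Col-0, 86.2 to 107 FPKM in MIR394A OE and 67.2 to 76.75 FPKM in Brz-treated Col-0. Seed storage markers summed to 2.34, 10.3 and 2.63 FPKM in Brz-treated Col-0, 0.77 to 1.06 FPKM in Col-0 and 0.49 to 2.08 FPKM in MIR394A OE. The part of these markers in the results was not tested. The MIR394A transcript itself was not analysed here.

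Promoter sequences are shown for the members whose levels varied most between libraries or stood apart in one of them, to set WRKY33, WRKY53 and FRK1, which hold W boxes there, beside WRKY40, which holds none. Each is the 250 bases before the annotated start in RefSeq TAIR10.1, read 5′ to 3′ on the strand of the gene, with capitals for W boxes (TTGACC or TTGACT, which read GGTCAA or AGTCAA when they lie on the other strand).
WRKY33 (chr2:16107985-16108234, + strand): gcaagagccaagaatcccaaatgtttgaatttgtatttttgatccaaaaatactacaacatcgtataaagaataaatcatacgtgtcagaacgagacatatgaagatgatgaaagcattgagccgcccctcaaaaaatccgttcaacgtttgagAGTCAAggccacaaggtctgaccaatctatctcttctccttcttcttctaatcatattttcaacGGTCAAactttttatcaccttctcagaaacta
WRKY40 (chr1:30383311-30383560, + strand): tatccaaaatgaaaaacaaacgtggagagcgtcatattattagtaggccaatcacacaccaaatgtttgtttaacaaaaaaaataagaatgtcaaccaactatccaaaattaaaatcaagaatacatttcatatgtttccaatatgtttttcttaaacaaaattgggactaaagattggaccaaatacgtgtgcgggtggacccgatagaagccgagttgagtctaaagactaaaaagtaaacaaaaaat
WRKY53 (chr4:12393983-12394232, - strand): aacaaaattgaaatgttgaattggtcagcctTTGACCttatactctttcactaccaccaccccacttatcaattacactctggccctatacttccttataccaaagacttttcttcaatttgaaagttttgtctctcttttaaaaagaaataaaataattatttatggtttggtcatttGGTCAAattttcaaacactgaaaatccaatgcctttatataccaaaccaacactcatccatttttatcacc
FRK1 (chr2:8329945-8330194, - strand): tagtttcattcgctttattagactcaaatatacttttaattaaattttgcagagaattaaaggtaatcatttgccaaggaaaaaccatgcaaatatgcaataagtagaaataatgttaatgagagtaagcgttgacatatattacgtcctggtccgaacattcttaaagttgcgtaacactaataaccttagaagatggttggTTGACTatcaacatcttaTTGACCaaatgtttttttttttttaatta
WRKY33 held 2 W boxes, both on the other strand, at 96 and 32 bases before the start, and WRKY53 held 2, at 219 and 71 bases. FRK1 held 2 on its own strand, at 47 and 29 bases before the start, whereas the window of WRKY40 held 0. PR5 and EDS1 held 1 each, and WRKY70, PR1, PR2 and NPR1 held 0. Of 24126 promoters of this length, 28.39% held at least 1 such match on either strand and 6.06% held at least 2. A match describes the letters and is no measure of binding.

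The 4 WRKY factors were lowest in replicates 1 and 2 of MIR394A OE and, of these 4, WRKY33 and WRKY70 had the smallest p against Col-0, but 0 members were called with limma. WRKY33, which is required for camalexin production and resistance to necrotrophic fungi, measured 14.7, 14.3 and 15.3 FPKM in Col-0. It measured 3.17, 5.10 and 14.6 FPKM in MIR394A OE and 14.2, 9.58 and 18.9 FPKM in Brz-treated Col-0. Replicates 1 and 2 of MIR394A OE thus lay below every other library, and replicate 3 lay within the range of Col-0. WRKY40, which restrains immune responses together with its relatives WRKY18 and WRKY60, measured 7.39, 11.02 and 10.4 FPKM in Col-0. In MIR394A OE it measured 0.96, 4.49 and 13.4 FPKM, and in Brz-treated Col-0 11.9, 10.7 and 27.7 FPKM. The highest WRKY40 level, in Brz-treated replicate 3, stood beside 2 replicates at the level of untreated Col-0, and the 3 MIR394A OE libraries spanned the level of Col-0 on both sides.

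WRKY53, a factor tied to leaf senescence and basal defence, measured 3.27, 1.23 and 0.91 FPKM in Col-0. It measured 0.41, 0.35 and 1.78 FPKM in MIR394A OE and 1.69, 0.98 and 4.86 FPKM in Brz-treated Col-0. Its highest libraries were Col-0 replicate 1 and Brz-treated replicate 3, and all groups overlapped. WRKY70, which sits between salicylate and jasmonate responses, measured 3.00, 5.53 and 3.25 FPKM in Col-0. It measured 0.80, 1.28 and 3.5 FPKM in MIR394A OE and 3.39, 2.89 and 4.35 FPKM in Brz-treated Col-0. Here too replicate 3 of MIR394A OE reached the range of Col-0 and the other replicates did not. In whole seedlings, a lower level may come from fewer cells of a type or from less RNA in each cell, and these cannot be told apart.

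**Figure D1:**
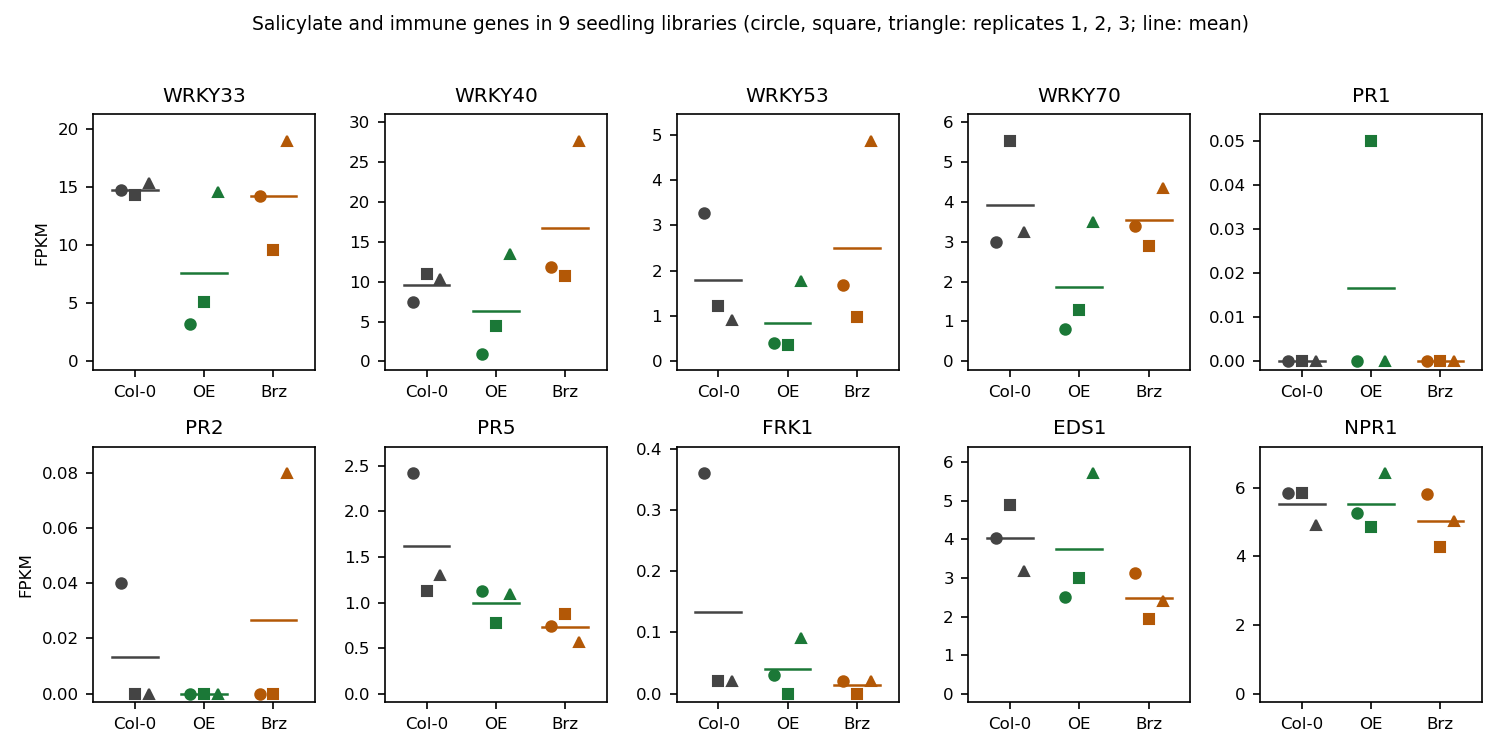
FPKM of the 10 salicylate and immune genes in each library, with circles, squares and triangles for replicates 1, 2 and 3 and a line at the group mean; each panel has its own axis from 0. For WRKY33 the MIR394A OE libraries lie at 3.17, 5.10 and 14.6 FPKM, while PR1 and PR2 stay at or under 0.08 FPKM throughout.

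Comparing MIR394A OE with Col-0, 0 of the 7 members that passed the filter on low values (at least 1 FPKM in at least 3 libraries) were called at an adjusted p under 0.05 with limma, where 0.0340% of all genes were called. The fold changes that follow are on the log2(FPKM + 1) scale, which understates the change of low genes. WRKY33 had a log2 fold change of -1.10 ± 0.38 (SE; limma, adjusted p = 1, with 0.0138 before adjustment). WRKY70 had one of -0.86 ± 0.31 (SE; limma, adjusted p = 1, with 0.0157 before adjustment). WRKY40 (-0.96 ± 0.56) and WRKY53 (-0.59 ± 0.41) had wider errors. An unadjusted p under 0.05 was found in 2 of the 7 members and in 401 of 17662 genes. The members were chosen with earlier results of these data known. Their counts and medians beside all genes are therefore descriptions and no evidence for a difference. The 95% interval of the WRKY33 difference ran from -1.93 to -0.27, and that of WRKY40 from -2.17 to 0.25. The median over the 7 tested members was -0.59, against -0.01 over all tested genes. Groups did not overlap in 0 of the 7 members and in 5.77% of all genes.

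The differences depended on which MIR394A OE and Col-0 libraries were in the comparison. Without MIR394A OE replicate 3, the log2 fold changes against Col-0 were -1.64 for WRKY33 (limma, adjusted p = 0.102), -1.67 for WRKY40 (0.817), -0.93 for WRKY53 (1) and -1.25 for WRKY70 (0.391), so 0 were called there too, where 0.0283% of all genes were. Without MIR394A OE replicate 1, WRKY33 stood at -0.69 and WRKY40 at -0.23. Leaving out Col-0 replicate 1 changed the median of the 7 members from -0.59 to -0.24, WRKY53 from -0.59 to -0.24 and PR5 from -0.36 to -0.15. MIR394A OE replicate 3 was above both other replicates of its group in 6 of the 7 tested members, by a median of 1.01 on the log2 scale, whereas its median over all genes was 0.17. It also lay apart from replicates 1 and 2 on the second principal component, together with Col-0 replicate 2 and Brz-treated replicate 1.

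The spread within groups was itself large for the WRKY genes. The pooled standard deviation on the log2 scale was 0.94 for WRKY40, larger than that of 99.84% of tested genes. It was 0.68 for WRKY53 (larger than 99.03%), 0.62 for WRKY33 (98.6%) and 0.47 for WRKY70 (95.42%), against a median of 0.23 over all genes. The remaining tested members lay closer to other genes, with 0.35 for EDS1 (larger than 85.01%), 0.24 for PR5 (55.44%) and 0.16 for NPR1 (22.35%).

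**Figure D2:**
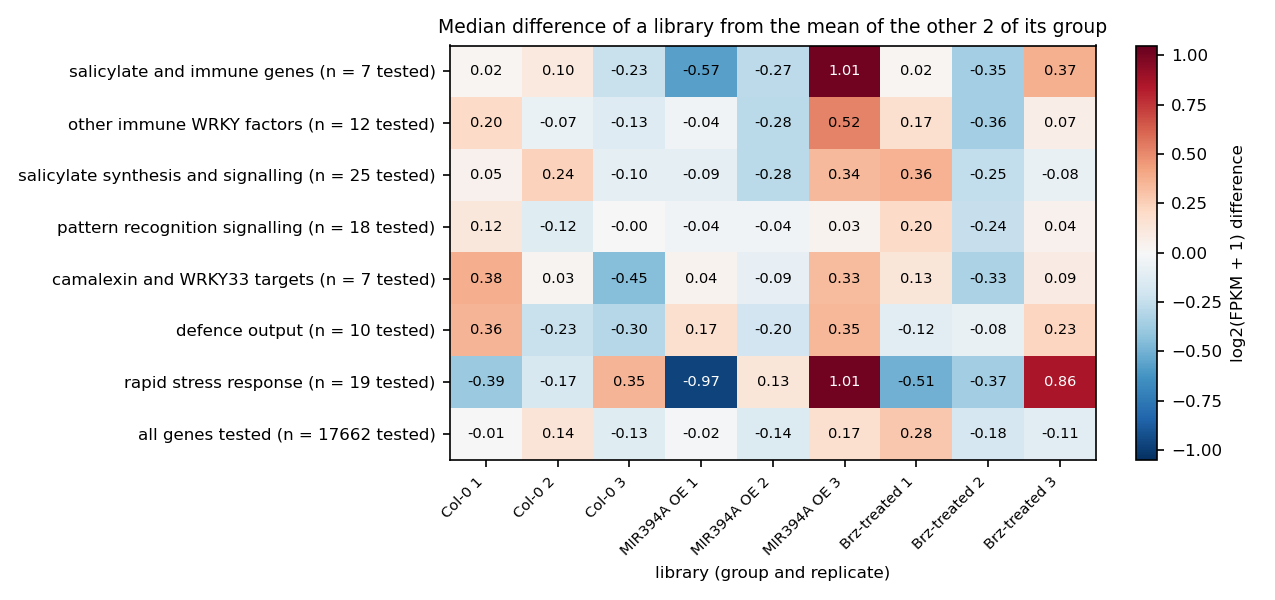
Median difference of each library from the mean of the other 2 replicates of its group, on the log2(FPKM + 1) scale, for the tested genes of each list and for all tested genes; red is higher, blue is lower. The salicylate and immune genes and the rapid stress genes are both highest in MIR394A OE replicate 3 (1.01 in each) and low in MIR394A OE replicate 1 (-0.57 and -0.97).

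In MIR394A OE against Brz-treated Col-0, WRKY40 was called lower and the other WRKY members were not. Its log2 fold change was -1.60 ± 0.56 (SE; limma, adjusted p = 0.040), and it was the 1 called member of 7 tested, where 37.8% of all genes were called and 12.0% were called lower. WRKY33 had -1.01 ± 0.38 (adjusted p = 0.055), WRKY70 -0.77 ± 0.31 (0.066) and WRKY53 -0.85 ± 0.41 (0.117), all from limma. The groups overlapped in WRKY40, since MIR394A OE replicate 3 (13.4 FPKM) exceeded 2 of the Brz-treated libraries. They overlapped in each of the 7 tested members, where 46.5% of all genes did not overlap. Leaving out MIR394A OE replicate 1 (-0.87, limma adjusted p = 0.147) or 2 (0.075), or Brz-treated replicate 1 (0.067), 2 (0.063) or 3 (0.160), ended the WRKY40 call. It was also lost with the length trend removed (-1.56, adjusted p = 0.081), where WRKY33 was called lower (-1.36 ± 0.39, adjusted p = 0.037) and so was NPR1, where 11.1% of all genes were. Without MIR394A OE replicate 3, all 4 WRKY members were called lower, WRKY33 by -1.55, WRKY40 by -2.31, WRKY53 by -1.19 and WRKY70 by -1.15, with limma adjusted p of 0.00122, 0.00242, 0.0453 and 0.00476. In that setting 14.7% of all genes were called lower.

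In Brz-treated against untreated Col-0, 0 of the 4 WRKY members were called with limma, where 41.9% of all genes were, and the lowest of their unadjusted p was 0.274. The log2 fold change was -0.09 for WRKY33, with a 95% interval from -0.93 to 0.74, 0.64 for WRKY40 (-0.57 to 1.85), 0.26 for WRKY53 (-0.64 to 1.16) and -0.09 for WRKY70 (-0.76 to 0.57). These intervals leave room for changes in either direction. WRKY53 turned to -0.19 without Brz-treated replicate 3, and WRKY33 to 0.27 with the length trend removed. MIR394A OE and Brz-treated Col-0 were each compared with the same Col-0 libraries, so these 2 sets of differences are not independent.

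**Figure D3:**
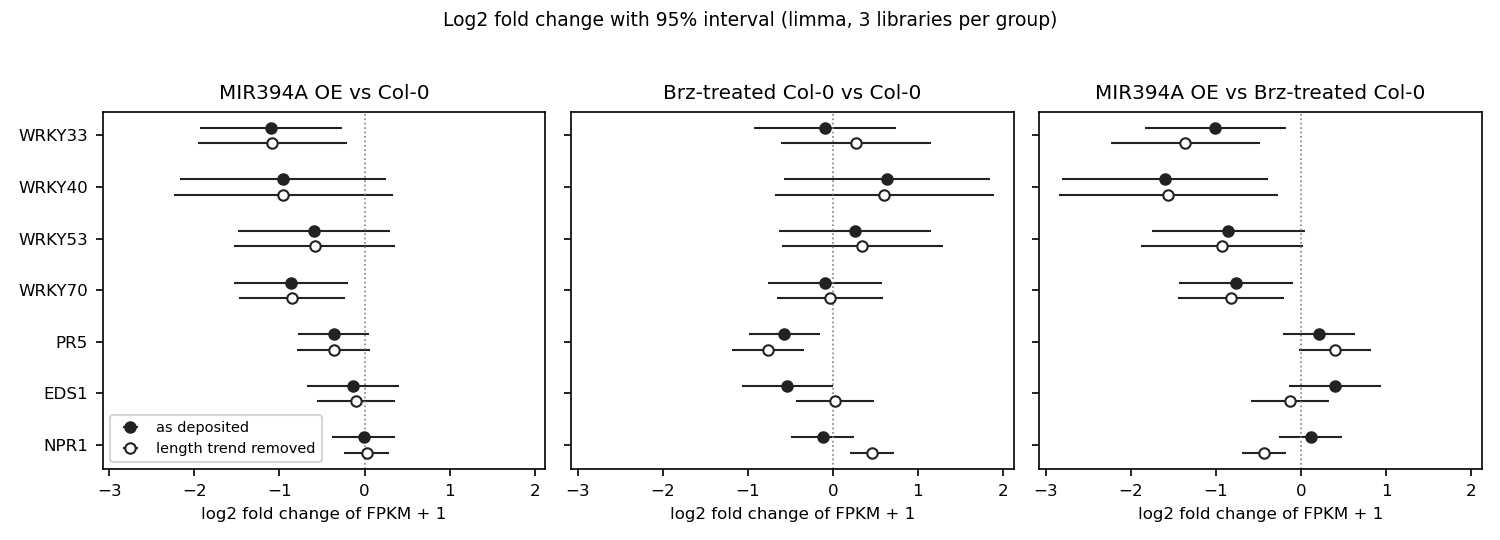
Log2 fold changes of the 7 tested members in the 3 comparisons, with 95% intervals from limma, on the log2(FPKM + 1) scale. Filled circles are values as deposited and open circles values with the length trend removed; EDS1 and NPR1 move most between the settings in the comparisons with Brz-treated Col-0, NPR1 from -0.12 to 0.46.

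The genes with the profile most like WRKY33 over the 9 libraries, by the root mean square difference of centred log2 values, were AT5G39670 (0.25), the calmodulin-like gene CML38 (0.26) and WRKY70 (0.29). CML38 measured 0.34, 0.68 and 3.8 FPKM in MIR394A OE against 4.25, 4.88 and 3.02 FPKM in Col-0, so it too was low in MIR394A OE replicates 1 and 2 and not in replicate 3. For WRKY40 the nearest were AT1G07135 (0.30), the ethylene response factor gene ERF5 (0.33) and AT3G50800 (0.35). ERF5 measured 5.28, 16.9 and 22.4 FPKM in MIR394A OE, 21.7, 24.8 and 34.7 FPKM in Col-0, and 24.9, 26.2 and 59.1 FPKM in Brz-treated Col-0. As for WRKY40, its lowest library was MIR394A OE replicate 1 and its highest Brz-treated replicate 3. The nearest to WRKY53 were AT5G46295 (0.22), AT5G46710 and PP2-B13 (both 0.27), and to WRKY70 HSPRO2 (0.20), AT5G60800 and BAP1 (both 0.22). HSPRO2 measured 74.9, 108 and 191 FPKM in MIR394A OE against 128, 198 and 175 FPKM in Col-0. These likenesses are descriptions over 9 libraries that share the same library differences.

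**Figure D4:**
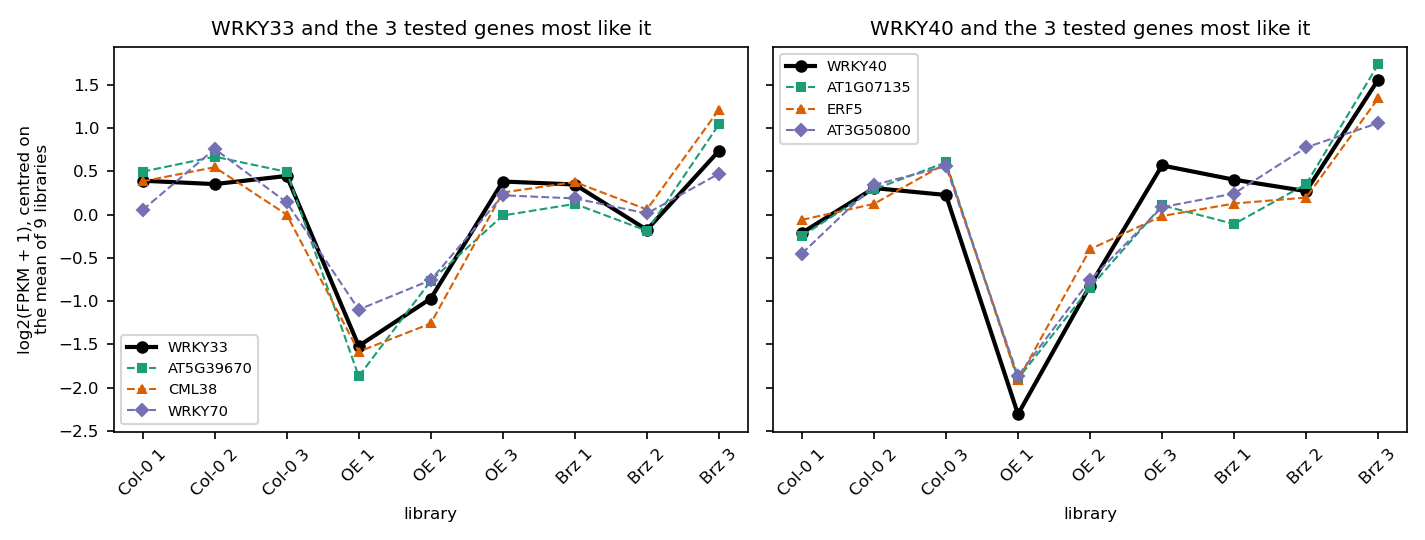
Profiles of WRKY33 and WRKY40 (black) and the 3 tested genes most like each (dashed), as log2(FPKM + 1) centred on the mean of the 9 libraries. All the profiles are lowest in MIR394A OE replicate 1 and highest in Brz-treated replicate 3, except that WRKY70 is highest in Col-0 replicate 2.

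Among the pathogenesis-related genes, PR1 and PR2 were at the limit of detection in every group, and PR5 was low but measurable. PR1 was listed at 0 in 8 libraries and at 0.05 FPKM in MIR394A OE replicate 2, which corresponds to 1 read. PR2, a beta-1,3-glucanase, was listed at 0 in 7 libraries, at 0.04 FPKM in Col-0 replicate 1 and at 0.08 FPKM in Brz-treated replicate 3, or 1 and 2 reads. At this depth 3 reads, the limit that a count of 0 allows, correspond to 0.159 to 0.160 FPKM for PR1 and 0.095 to 0.096 FPKM for PR2, counting error only. Differences between groups below these levels were not detectable, and neither gene nor FRK1 passed the filter on low values.

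PR5, a thaumatin-like protein, measured 2.42, 1.13 and 1.3 FPKM in Col-0. It measured 1.13, 0.78 and 1.09 FPKM in MIR394A OE and 0.74, 0.87 and 0.57 FPKM in Brz-treated Col-0. Every Brz-treated library was below every untreated Col-0 library, and the 9 values rested on an estimated 13 to 56 reads. PR5 was called lower in Brz-treated Col-0 (-0.57 ± 0.19, SE; limma, adjusted p = 0.032), the 1 called member of 7, where 41.9% of all genes were called and 28.7% were called lower. The share of members called was thus not above the share of all genes. PR5 reached the 1 FPKM of the filter in every Col-0 library, in MIR394A OE replicates 1 and 3 and in no Brz-treated library. It thus entered the test through the libraries where it was higher, and its call is no separate support for a difference. PR5 was again called lower once the length trend was removed (-0.76 ± 0.19, limma adjusted p = 0.020), where 10.4% of all genes were. The call was lost under median-ratio scaling (-0.44, limma adjusted p = 0.073) and when Col-0 replicate 1 was left out (-0.36, adjusted p = 0.139). Leaving out Brz-treated replicate 1, 2 or 3 gave limma adjusted p of 0.051, 0.062 and 0.116. In MIR394A OE against Col-0 PR5 had -0.36 ± 0.19 (limma, adjusted p = 1), and the groups touched at 1.13 FPKM.

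FRK1, a receptor kinase gene induced by flagellin in leaves and protoplasts, measured 0.36 FPKM in Col-0 replicate 1, an estimated 21 reads, and at most 0.09 FPKM, or 5 reads, in any other library. Col-0 replicates 2 and 3 were at 0.02 FPKM each, MIR394A OE at 0.03, 0 and 0.09 FPKM, and Brz-treated Col-0 at 0.02, 0 and 0.02 FPKM. Col-0 replicate 1 was thus the library with most of the FRK1 reads. FRK1 shares 175 bases with AT2G19180 on the other strand, and that gene measured 19.8, 19.8 and 17.2 FPKM in Col-0, without the rise of replicate 1. Some other genes that respond to microbial patterns, picked after their values were seen, were high in the same library. CYP71A12, a cytochrome P450 gene of indole metabolism, measured 8.10 FPKM in Col-0 replicate 1 and at most 0.13 FPKM elsewhere. CYP81F2, which modifies indole glucosinolates, measured 22.8 FPKM there and 0.58 to 2.72 FPKM elsewhere, and WRKY30 measured 2.81 FPKM against at most 0.92 FPKM. PR5 and WRKY53 had their highest Col-0 level in this library too. WRKY33 (14.7 FPKM) and WRKY40 (7.39 FPKM) were not raised in it, and of the 19 tested rapid stress genes described further on 2 were above both other Col-0 libraries, with a median difference of -0.39 on the log2 scale. Root markers were lowest there, at a sum of 59.5 FPKM against 81.0 and 88.6 FPKM in the other Col-0 libraries, and their part in these values was not tested.

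EDS1 and NPR1, the regulators upstream and downstream of salicylate, were expressed in every library. Neither was called between MIR394A OE and Col-0, where 0.0340% of all genes were. EDS1 measured 4.05, 4.90 and 3.18 FPKM in Col-0. It measured 2.50, 3.01 and 5.72 FPKM in MIR394A OE and 3.12, 1.93 and 2.40 FPKM in Brz-treated Col-0. MIR394A OE replicate 3 was the highest library for EDS1, while MIR394A OE replicates 1 and 2 lay below every Col-0 library. The log2 fold change of EDS1 in MIR394A OE against Col-0 was -0.13, with a 95% interval from -0.67 to 0.40. Without MIR394A OE replicate 3 it was -0.41. EDS1 in the Brz-treated libraries lay below that in untreated Col-0. Its log2 fold change in Brz-treated Col-0 was -0.53 ± 0.25 (SE; limma, adjusted p = 0.10), and it was called without MIR394A OE replicate 3, which enters through the shared error (limma, adjusted p = 0.044; 29.9% of all genes were called lower there). Once the length trend was removed it was 0.02 (limma, adjusted p = 0.947), for a transcript of 2551 bases. PR5 and EDS1 were the 2 of 7 members whose Brz-treated and untreated groups did not overlap, both lower, where 32.0% of all genes had this pattern in this direction. AT3G48080, the neighbouring near-identical copy of EDS1, was listed at 0.08 to 0.33 FPKM, and reads shared by the copies may have been assigned to either.

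NPR1 was the steadiest member, at 5.85, 5.83 and 4.92 FPKM in Col-0. It measured 5.26, 4.86 and 6.42 FPKM in MIR394A OE and 5.80, 4.27 and 5.02 FPKM in Brz-treated Col-0. The 3 groups overlapped, and the difference of MIR394A OE from Col-0 was -0.01, with a 95% interval from -0.38 to 0.36. In Brz-treated Col-0 the difference was -0.12 ± 0.17 (SE; limma, adjusted p = 0.584). Removal of the length trend brought it to 0.46 ± 0.12 (limma, adjusted p = 0.021; 13.1% of all genes were called higher) against Col-0 and -0.43 ± 0.12 (adjusted p = 0.029) for MIR394A OE against Brz-treated Col-0. For this transcript of 2614 bases the sign in both Brz comparisons thus turned with the trend removed, and it turned under median-ratio scaling too (0.0984 and -0.0899). Genes most like NPR1 differed from it by 0.04 (RTV1) and 0.05 (ING1 and EMB2757), those most like EDS1 by 0.07 (AT2G03420) and 0.08 (GC2 and AT4G29400), and those most like PR5 by 0.14 (AT2G23200) and 0.15 (tny and Hsp70b). By group means in Col-0, levels per length ran from WRKY33 (14.8 ± 0.52 FPKM, SD, n = 3) and WRKY40 (9.59 ± 1.94) through NPR1 (5.53 ± 0.53), EDS1 (4.04 ± 0.86), WRKY70 (3.93 ± 1.39), WRKY53 (1.80 ± 1.28) and PR5 (1.62 ± 0.70) down to FRK1, PR2 and PR1. From EDS1 down to PR5 each level overlapped the next in its mean ± SD, and the levels above EDS1 did not.

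Another 125 genes of the pathways, in 6 lists, were set beside the members. The lists were grouped by function but chosen with earlier results of these data known. Their counts and medians beside all genes are therefore descriptions and no test of the lists. Against Col-0, MIR394A OE had 0 genes called in any list with limma, and the number with an unadjusted p under 0.05 was 1 or 0 per list except for the list of rapid stress response genes. In that list, which holds transcription factors and calcium-related genes induced within minutes by touch, wounding or elicitors, 6 of 19 tested genes had an unadjusted p under 0.05, beside 401 of 17662 over all genes. Of these 19 genes, 18 lay below 0, with a median of -0.60, where 52.8% of all genes lay below 0. The count of 6 became 0 when MIR394A OE replicate 1 was left out, with a median of -0.30, and 13 when its replicate 3 was. It was 2 with Col-0 replicate 3 or Brz-treated replicate 1 left out, with the length trend removed or with only the 2 groups compared, and 1 under median-ratio scaling or with no filter on low values. Over all genes, 401 became 245 without MIR394A OE replicate 1 and 741 without its replicate 3. Without Col-0 replicate 3 or Brz-treated replicate 1 it was 498 and 496. It was 571 with the length trend removed, 400 with only the 2 groups compared, 421 under median-ratio scaling and 677 of 24182 with no filter. The rapid stress response genes with the smallest p were ERF1A (-0.64) and TCH3, a calmodulin-like gene, at 40.8, 64.4 and 119 FPKM against 181, 112 and 111 FPKM in Col-0 (-0.94 ± 0.31, SE; limma, adjusted p = 1). Its groups overlapped through MIR394A OE replicate 3. In the other lists the 2 smallest p belonged to CBP60g, an activator of salicylate synthesis (-0.51), and NDR1 (-0.30), to WRKY11 (-0.40) and WRKY22 (-0.58), to the kinase genes MPK3 (-0.57) and SOBIR1 (-0.49), to CYP79B2 (0.38) and CYP79B3 (0.28) of indole metabolism, and to the chitinase gene PR3 (0.44) and PROPEP3 (-0.44), the precursor of an immune peptide. Each had a limma adjusted p of 1.

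Against Brz-treated Col-0, MIR394A OE had 9 of the 19 rapid stress response genes called lower and 1 called higher, with a median of -0.84 where that of all genes was 0.21. Over all genes, 12.0% were called lower and 25.8% higher. ERF6 (-2.21 ± 0.51; limma, adjusted p = 0.0068), ERF11 (-1.99 ± 0.45, adjusted p = 0.0060) and the ubiquitin ligase gene ATL2 (-1.32 ± 0.32, adjusted p = 0.0086) had the smallest p among those lower, and the jasmonate repressor JAZ1 was higher (0.71 ± 0.24, adjusted p = 0.035). ERF11 measured 0.41, 1.26 and 3.38 FPKM in MIR394A OE, 1.91, 2.88 and 3.20 FPKM in Col-0, and 4.71, 6.62 and 19.0 FPKM in Brz-treated Col-0. Its highest library was again Brz-treated replicate 3. The count of 9 became 4 when MIR394A OE replicate 1 was left out, 13 when its replicate 3 was, 5 when Brz-treated replicate 2 was and 4 when Brz-treated replicate 3 was, and it was 5 with no filter on low values, 7 with the length trend removed and 11 under median-ratio scaling. Lower calls over all genes moved too, from 2115 to 1247, 2601, 1292 and 1305 with these libraries left out. They were 1990 of 24182 genes with no filter, 1962 with the length trend removed and 3931 under median-ratio scaling.

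**Figure D5:**
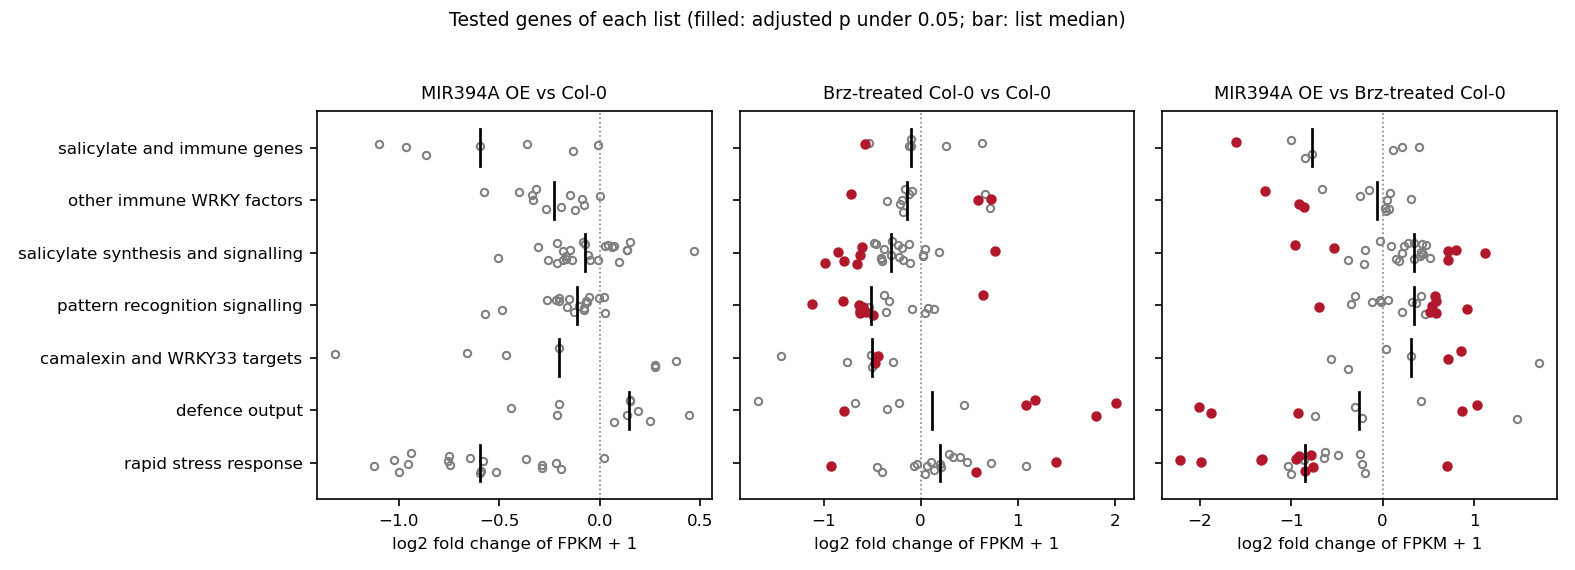
Log2 fold change of each tested gene of the salicylate and immune genes and of the 6 other lists in the 3 comparisons, on the log2(FPKM + 1) scale; filled points have a limma adjusted p under 0.05 and the bar is the list median. In MIR394A OE against Col-0 no point is filled, and the rapid stress response list has its median at -0.60; in the Brz comparison 4 defence output genes are filled above 0.

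In Brz-treated against untreated Col-0, 4 defence output genes rose while PR5 fell and PR1 and PR2 stayed at or near 0. Of 10 tested defence output genes, 4 were called higher and 1 lower, where 13.2% of all genes were called higher. PR4, a hevein-like protein gene, measured 130, 209 and 216 FPKM in Brz-treated Col-0 against 41.2, 55.2 and 36.6 FPKM in Col-0 (2.02 ± 0.23, SE; limma, adjusted p = 4.4e-04). SAG21, a late embryogenesis abundant protein gene of stress and senescence, measured 1207, 1791 and 1287 FPKM against 528, 314 and 391 FPKM (1.81 ± 0.31, adjusted p = 0.0013, limma). The groups did not overlap in either gene, where 18.1% of all genes were higher without overlap. The osmotin gene OSM34 (1.08) and the chitinase gene PR3 (1.18) also rose, and the wall-associated kinase gene WAK2 (-0.79) fell. All 4 higher calls were made with the length trend removed too, and that of WAK2 was not.

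The salicylate list had 6 genes called lower and 1 higher of 25 tested, where 28.7% of all genes were called lower. The phenylalanine ammonia-lyase genes PAL2 (-0.98 ± 0.16, SE; limma, adjusted p = 0.0011) and PAL1 (-0.65 ± 0.18, adjusted p = 0.012) and ICS1, the isochorismate synthase of salicylate production (-0.85 ± 0.18, adjusted p = 0.0035), had the smallest p among those that fell. ICS1 measured 3.87, 2.88 and 3.00 FPKM in Brz-treated Col-0 against 8.07, 5.59 and 6.41 FPKM, with no overlap. Of all genes, 32.0% were lower without overlap. NIMIN2, which encodes a protein that binds NPR1, rose (0.77 ± 0.19, adjusted p = 0.0076, limma), a call lost after removal of the length trend (0.28, adjusted p = 0.248). NIMIN2 measured 1.77, 2.07 and 2.78 FPKM in Brz-treated Col-0 against 0.64, 0.85 and 1.13 FPKM, and passed the filter only with the Brz-treated libraries. After removal of the length trend, ICS1 was called lower (-0.45 ± 0.14, limma adjusted p = 0.048), DMR6, a salicylate hydroxylase, lower (-0.40) and PAD4, the partner of EDS1, higher (0.64), and PAL1 and PAL2 were not called. Leaving out Brz-treated replicate 1, 2 or 3 in turn changed the 6 lower calls to 11, 2 and 3, and leaving out Col-0 replicate 1 changed them to 3. Lower calls over all genes moved in the same directions, from 5065 to 7168, 2622 and 2902, and to 3738 without Col-0 replicate 1.

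The list of pattern recognition signalling had 9 genes called lower and 1 higher of 18 tested. For this list and those that follow, 28.7% of all genes were called lower and 13.2% higher, and 10.4% and 13.1% once the length trend was removed. The NADPH oxidase gene RBOHD fell (-1.12 ± 0.18, SE; limma, adjusted p = 0.0011), as did the kinase gene MPK6 (-0.62 ± 0.14, adjusted p = 0.0052) and the coreceptor gene BAK1 (-0.59 ± 0.15, adjusted p = 0.0084), and MKS1, a substrate of MPK4, rose (0.65 ± 0.18, adjusted p = 0.013). After removal of the trend 1 gene, MPK6, was called lower and 3, MPK4, BIK1 and MKK4, were called higher. Leaving out Brz-treated replicate 2 or 3 changed the 9 lower calls to 3 and 5, and leaving out Col-0 replicate 1 changed them to 4. Under median-ratio scaling they were 3. Over all genes the lower calls went from 5065 to 2622 and 2902 without Brz-treated replicate 2 or 3. They went to 3738 without Col-0 replicate 1 and to 3782 under median-ratio scaling. Among 12 other immune WRKY factors, WRKY15 (0.60 ± 0.15, limma adjusted p = 0.0086) and WRKY28 (0.72 ± 0.19, adjusted p = 0.010) rose and WRKY11 (-0.71 ± 0.15, adjusted p = 0.0039) fell, and the same 3 genes were called with the length trend removed. WRKY28, at 2.69, 2.28 and 2.44 FPKM in Brz-treated Col-0, passed the filter only with that group. WRKY15 measured 66.3, 66.2 and 66.4 FPKM against 51.0, 34.98 and 46.2 FPKM in Col-0. Of 7 tested genes of camalexin synthesis and WRKY33 targets, CYP79B3 (-0.44) and CYP79B2 (-0.47) fell, and neither was called with the length trend removed. The rapid stress response list had ERF11 (1.40) and the ubiquitin ligase gene ATL6 (0.57) called higher and JAZ1 (-0.93) lower of 19. The call of ERF11 was lost after removal of the length trend (1.28, limma adjusted p = 0.070), and the 2 higher calls became 0 when Col-0 replicate 1 or Brz-treated replicate 3 was left out. Higher calls over all genes went from 2333 to 1815 and 1544 there.

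Of the 10 members, 5 overlap another annotated gene on the other strand, and whether counting used the strand is not given in the sources used here. WRKY33 shares 26 bases with AT2G38480, WRKY40 51 bases with AT1G80850 and WRKY53 341 bases with AT4G23800, an HMG-box protein gene. AT2G38480 measured 22.3, 20.8 and 22.0 FPKM in MIR394A OE and AT1G80850 measured 3.51, 2.85 and 3.87 FPKM, without the low values of WRKY33 and WRKY40 in replicates 1 and 2. AT4G23800 measured 8.11, 12.9 and 5.98 FPKM in Col-0, where WRKY53 was highest in replicate 1, and 5.64, 4.99 and 8.90 FPKM in MIR394A OE. Like WRKY53 it was lower in MIR394A OE replicates 1 and 2 than in replicate 3, and its part in the WRKY53 values was not tested. WRKY33 also shares 272 bases with AT2G08965, and NPR1 214 bases with AT1G08667 and 38 with AT1G64270, and these 3 loci were not used here.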

How the data were processed

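The authors deposited 1 table of FPKM values, per the file headers, with 2 decimals. The submitters' processing notes name HISAT and Bowtie2. As for versions, genome build, annotation, use of strand and the FPKM program, each is not given in the sources used here. All 9 value columns were used. Depth was fitted from the steps of low FPKM values, of which 86.3% to 89.6% per library lay within 0.1 of a whole read. FPKM are not counts, so log2(FPKM + 1) was tested with limma 3.58.1 (R 4.3.3; group means of the 9 libraries, 6 residual degrees of freedom, moderated with an intensity trend, tests in both directions) in the 17662 genes with at least 1 FPKM in at least 3 libraries. P-values were adjusted over these genes by the Benjamini-Hochberg method and called under 0.05. The fit was tested on simulated data.

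The alternatives were a replicate block, a loess trend on log2 transcript length removed per library (span 0.5; 132 tested genes without a length were shifted by the library median), median-ratio scaling, a pseudocount of 0.1, no filter, only the 2 groups compared, each library left out, and Col-0 replicate 2 with MIR394A OE replicate 3 left out. From each list of pathway genes the text names all called genes where there were at most 6, otherwise the 3 with the smallest p in each direction, and where none was called the 2 with the smallest p. FRK1-like genes of Col-0 replicate 1, the overlapping genes and the EDS1 copy were named after their values were seen. The members and lists were chosen with earlier results of these data known. Names, lengths and promoters came from RefSeq TAIR10.1, which matched 27438 of 27647 loci.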

Additional observations from a re-analysis of the deposited data

How the results depend on the processing

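The number of members called was small and moved with single libraries. In MIR394A OE against Brz-treated Col-0, the 1 lower call became 2 with the replicate block, 2 with the length trend removed, 3 under median-ratio scaling, 0 with no filter and 3 with only the 2 groups compared, and 0 to 4 with a library left out (0 without MIR394A OE replicate 1 or 2 or any Brz-treated replicate, 2 without Col-0 replicate 2, 4 without MIR394A OE replicate 3). Over all genes, 12.0% were called lower in the main fit, 11.1% with the length trend removed and 22.3% under median-ratio scaling. Of 17662 genes, 1671 were called lower with the replicate block, 1992 with only the 2 groups compared and 1247 to 2601 with a library left out. With no filter it was 1990 of 24182 genes. In Brz-treated against untreated Col-0, the 1 lower call became 0 under median-ratio scaling and 0 to 2 with a library left out, and 1 higher call, NPR1, appeared with the length trend removed. Over all genes, 28.7% were called lower in the main fit and 21.4% under median-ratio scaling, and 2622 to 7168 genes with a library left out. With the length trend removed, 13.1% of all genes were called higher. The cause was not tested. In MIR394A OE against Col-0 the count of members was 0 under every alternative run, where 2 to 6 of all genes were called lower.

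With the length trend removed, EDS1 went from -0.53 to 0.0237 in Brz-treated against untreated Col-0 and to -0.13 in MIR394A OE against Brz-treated Col-0, NPR1 to 0.46 and -0.43 in these comparisons and to 0.0232 in MIR394A OE against Col-0, and WRKY33 to 0.27 in Brz-treated Col-0. Under median-ratio scaling NPR1 went to 0.0984, -0.0899 and 0.0085 in the same order, and in Brz-treated Col-0 WRKY33 went to 0.15 and WRKY70 to 0.12. With a library left out, MIR394A OE against Col-0 ranged from -0.41 to 0.0559 for EDS1 and from -0.11 to 0.0643 for NPR1, and Brz-treated against untreated Col-0 from -0.31 to 0.15 for WRKY33, from -0.19 to 0.61 for WRKY53 and from -0.23 to 0.13 for WRKY70.

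Over all tested genes, same-numbered libraries of different groups correlated at -0.64 to 0.15 after group means were removed. Differently numbered ones correlated at -0.22 to 0.55, highest for Col-0 replicate 2 with MIR394A OE replicate 3. Libraries of the same number were thus not the most alike over all genes. This does not exclude pairing in single lists. With the replicate number as a block, WRKY33 was called lower in MIR394A OE against Brz-treated Col-0 (-1.01, limma adjusted p = 0.035), and the counts of members called in the other comparisons did not change. The rapid stress genes did deviate alike, with medians of -0.39, -0.97 and -0.51 in the libraries numbered 1 (Col-0, MIR394A OE, Brz-treated) and 0.35, 1.01 and 0.86 in those numbered 3. The block moved their 6 unadjusted p under 0.05 against Col-0 to 12 and their 9 lower calls against Brz-treated Col-0 to 13. Over all genes it moved these counts from 401 to 334 and from 2115 to 1671. Members with few reads (PR1, PR2, FRK1) are limited by depth.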

Other observations

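Genes of the other lists were also called between MIR394A OE and Brz-treated Col-0. For each list in this section, 25.8% of all genes were called higher in MIR394A OE and 12.0% lower. With the length trend removed these shares were 9.30% and 11.1%. Of 12 other immune WRKY factors, WRKY22, a factor downstream of flagellin perception (-1.29 ± 0.31, SE; limma, adjusted p = 0.0084), WRKY28 (-0.92 ± 0.19, adjusted p = 0.0037) and WRKY15 (-0.86 ± 0.15, adjusted p = 0.0018) were lower in MIR394A OE, and 0 were higher. WRKY28 passed the filter only with the Brz-treated libraries, where it was higher. The indole genes CYP79B2 (0.85 ± 0.15, limma adjusted p = 0.0019) and CYP79B3 (0.71 ± 0.13, adjusted p = 0.0025) were higher in MIR394A OE, and neither was called once the length trend was removed.

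Of 25 salicylate genes, PAL2 (1.119), PAL1 (0.80), ICS1 (0.71) and CBP60a (0.72) were called higher in MIR394A OE and NIMIN2 (-0.95) and CBP60g (-0.53) lower. In MIR394A OE, NIMIN2 measured 0.35, 0.71 and 0.92 FPKM and CBP60g 0.24, 0.32 and 0.81 FPKM. Neither reached 1 FPKM in that group. NIMIN2 passed the filter only with the Brz-treated libraries, and CBP60g with Col-0 replicate 1 and Brz-treated replicates 1 and 3. Their calls are no separate support for a difference. Of 18 genes of pattern recognition 6 were called higher, RBOHD (0.92), MPK6 (0.54) and BAK1 (0.52) with the smallest p, and MKS1 was called lower (-0.70). The 6 higher calls became 2 without MIR394A OE replicate 1, 9 and 1 without Brz-treated replicate 1 or 2, and 1 under median-ratio scaling. Higher calls over all genes went from 4559 to 2712, 6854, 2295 and 3589 in the same order. In the data without the length trend, the salicylate list had 1 higher and 2 lower, and the pattern recognition list 0 and 3. Of 10 defence output genes, WAK2 (1.04) and SAG13 (0.87) were higher, and PR4 (-1.88), SAG21 (-2.01) and OSM34 (-0.93) were lower, and with the length trend removed 0 were called higher and these 3 lower. SAG13 was at most 0.08 FPKM in Brz-treated Col-0. It passed the filter through Col-0 replicates 1 and 3 and MIR394A OE replicates 2 and 3.

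GSTF6 and GSTF7, neighbouring and similar glutathione transferase genes, so that the split of reads between them is uncertain, measured 129 and 92.5 FPKM in Col-0 replicate 1, the library with the highest FRK1. In the other libraries GSTF6 ranged from 7.16 to 67.8 FPKM and GSTF7 from 3.65 to 28.5 FPKM. MIR394A OE replicate 3 was the next highest for both.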
